A study of Mus musculus with 18 samples.

Results

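This section follows 8 genes of bile duct epithelium and liver progenitor cells, Krt19, Krt7, Krt8, Krt18, Epcam, Sox9, Spp1 and Cd24a, in mouse liver. They were taken by gene name from a deposited count table of 35275 genes, and all 8 were found. RNA sequencing had been run on 18 libraries, 3 for each of 6 groups: NRF2 wild type (WT) and NRF2 knockout (KO) mice sampled 2 days (2D), 4 weeks (4W) or 36 weeks (36W) following DEN, the liver carcinogen diethylnitrosamine. All animals were on a mixed B6;129P2 background and all had received DEN, so there was no untreated group, and the time since DEN and the age of the animal cannot be told apart. The labels give neither the knockout allele, the sex nor the age at injection. They name the source as liver tumor for the 2D libraries and as liver tissue for the 4W and 36W libraries, while the extraction text speaks of removed tumors for every library. Whether any one library held tumor was not given in the labels, and they do not say that replicates came from separate animals, so p-values measure the spread between libraries.

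Cholangiocytes, the epithelial cells that line bile ducts, carry the keratin pair KRT7 and KRT19 together with KRT8 and KRT18, whereas mature hepatocytes carry KRT8 and KRT18 and little of the other pair. Keratins form filaments only as pairs of a type II chain (KRT7, KRT8) and a type I chain (KRT18, KRT19). SOX9, a transcription factor, EPCAM, a surface adhesion protein, and CD24, a small glycosylated surface protein, are used to recognise duct and progenitor cells, and SOX9 and osteopontin, the secreted protein encoded by Spp1, also appear in injured hepatocytes. Spp1 is made by macrophages as well. NRF2, encoded by Nfe2l2, is a transcription factor that switches on antioxidant and detoxification genes.

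Of the 8 genes, 5 had promoter windows in RefSeq (GRCm38.p6, the assembly of the mm10 build), giving 6 windows of 300 bases because Spp1 has a pair of annotated starts. The windows of Krt8, Krt18 and Spp1 are shown because their higher levels at 36 weeks than at 4 weeks in KO kept their call under every alternative run; each runs 5′ to 3′ on the gene's own strand from 250 bases before the annotated start to 50 bases after it, with any match to the TATA box letters TATAAA on either strand in capitals.
Krt8, chr15:102004293-102004592, minus strand: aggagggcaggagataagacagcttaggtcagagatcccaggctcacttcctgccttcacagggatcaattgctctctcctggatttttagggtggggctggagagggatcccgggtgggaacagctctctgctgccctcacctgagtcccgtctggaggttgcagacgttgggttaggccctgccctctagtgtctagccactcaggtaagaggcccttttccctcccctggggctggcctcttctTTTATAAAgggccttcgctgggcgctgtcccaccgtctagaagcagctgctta
Krt18, chr15:102027966-102028265, plus strand: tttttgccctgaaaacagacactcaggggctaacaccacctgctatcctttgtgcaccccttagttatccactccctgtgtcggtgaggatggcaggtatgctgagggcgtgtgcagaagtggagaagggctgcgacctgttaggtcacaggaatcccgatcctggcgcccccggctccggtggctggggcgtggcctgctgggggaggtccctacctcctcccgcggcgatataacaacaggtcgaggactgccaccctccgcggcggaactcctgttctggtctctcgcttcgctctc
Spp1, chr5:104434861-104435160, plus strand: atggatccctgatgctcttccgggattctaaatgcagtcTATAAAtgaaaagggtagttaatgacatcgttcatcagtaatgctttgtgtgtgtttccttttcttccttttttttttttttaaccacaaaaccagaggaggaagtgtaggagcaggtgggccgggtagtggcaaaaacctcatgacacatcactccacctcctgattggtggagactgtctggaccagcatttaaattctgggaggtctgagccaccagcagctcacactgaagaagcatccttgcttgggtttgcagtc
In Krt8 a forward and a reverse match overlap and begin 1 and 3 bases before the annotated start, in Spp1 a single match begins 211 bases before it, and Krt18 has none. The letters TATAAA occurred in 13.6% of the 32851 RefSeq windows of this length. The NRF2 response element core TGACNNNGC was in 12.4% of all windows, the TEAD site GGAATG in 14.7%, the AP-1 site TGANTCA in 7.81% and the SOX site ACAATG in 12.6%. On either strand, none of these 4 was found in any of the 6 windows of these genes, which says only that the letters are not there.

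In the deposited coordinates Krt8 (chromosome 15, 101996711 to 102004342, minus strand) and Krt18 (chromosome 15, 102028216 to 102032026, plus strand) are neighbours that point away from each other, with 23.9 kb between them. Krt7 (101411043 to 101430313, plus strand) lies on the same chromosome 566 kb from Krt8. Krt19 (100140810 to 100148665, minus strand) and Sox9 (112782224 to 112787760, plus strand) are on chromosome 11. Epcam is on chromosome 17 (87635979 to 87651106), Spp1 on chromosome 5 (104435118 to 104441050) and Cd24a on chromosome 10 (43579169 to 43584262), all on the plus strand. All 8 are annotated as protein coding in GENCODE M21, where Krt7 overlaps an antisense gene, Krt8 a long noncoding RNA on the other strand and Spp1 an unconfirmed transcript on its own strand. These partners have no overlapping row in the table, and the labels do not say whether counting used strand, so reads from them cannot be told apart from those of the genes.

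The libraries held 15294175 to 24233456 counts, with a median of 18543173, and levels are given as CPM, the count per 1000000 counts after TMM scaling, where 3 counts correspond to 0.132 to 0.207 CPM. Nfe2l2, the targeted gene, ran from 70.2 to 76.1 CPM in WT and from 43.2 to 67.8 in KO at 2D (adjusted p = 0.396 by edgeR), at 90.0 to 109 against 54.0 to 56.2 at 4W (adjusted p = 0.00211) and at 105 to 127 against 37.7 to 43.0 at 36W (adjusted p = 0.0328). Nqo1, a direct NRF2 target, was at 11.2 to 103 CPM in the 9 WT libraries and at 0.752 to 6.40 in the 9 KO libraries, so its levels in the genotypes did not overlap. Summed over 8 hepatocyte genes the level was between 82270 and 242629 CPM in every library.

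Per kilobase of gene length and leaving out the third 2D WT library, which stood apart, Krt8 was the most abundant of the 8 genes, with a median of 207 CPM per kb (range 146 to 390 over 17 libraries). Krt18 followed at 186 (124 to 639), and Krt8 was the higher of the pair in 10 of the 17 libraries, so their order was not fixed. Spp1 had a median of 72.4 CPM per kb and the widest span among the abundant members, 53.1 to 760. Cd24a (4.34), Sox9 (3.15), Epcam (1.98) and Krt19 (1.21) were far lower, and neighbours among them in this order overlapped in range. Cd24a was below Spp1 in all 17 libraries. Krt7 was lowest, with a median of 0.329 CPM per kb and 4 counts in its poorest library. The members therefore fell into 3 abundant genes and 5 rare ones, and in the rare ones counting error was a larger share of the spread.

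**Figure D1:**
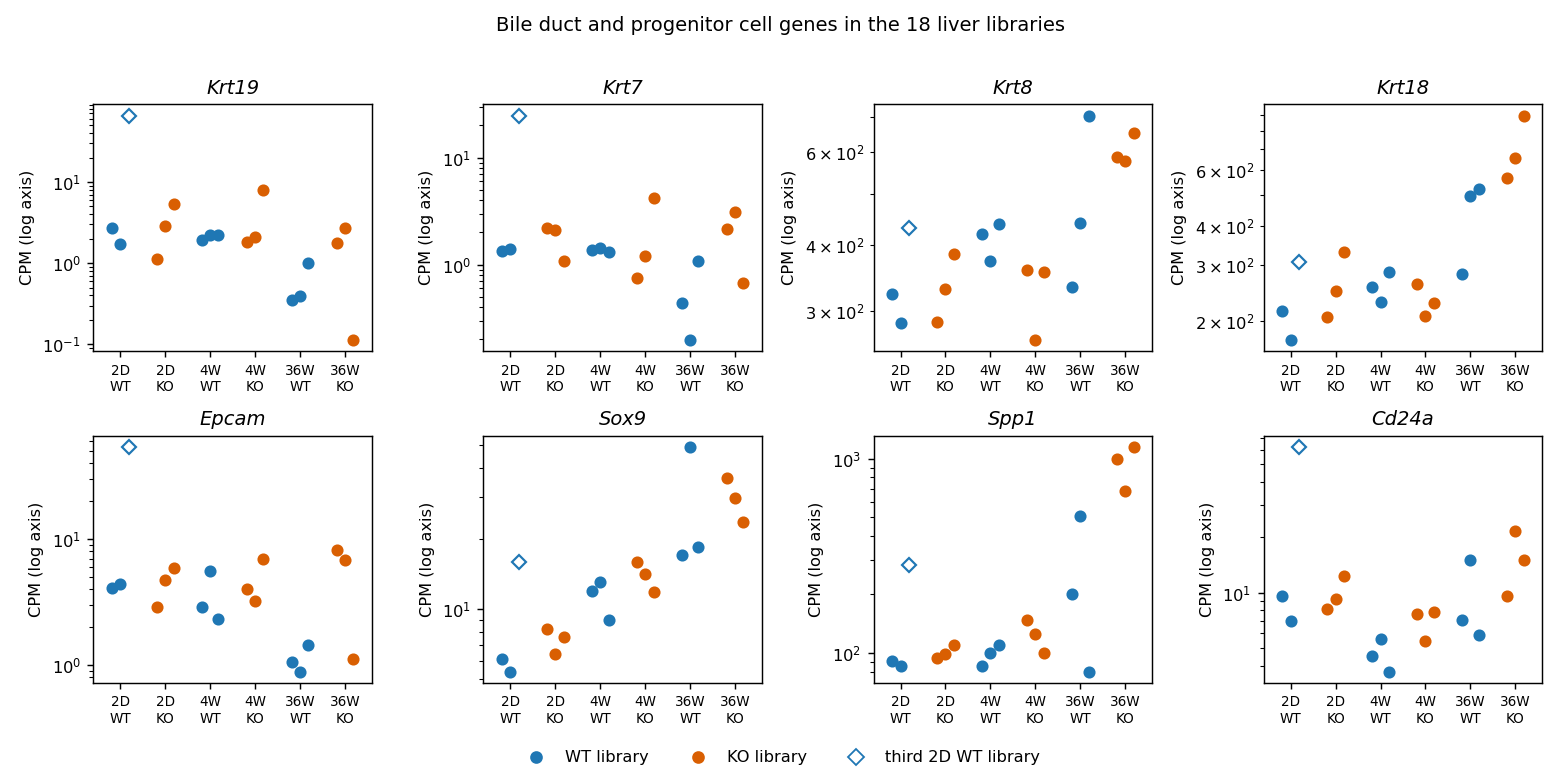
Level of each gene in each of the 18 libraries, in CPM on a log axis that differs between panels; points are single libraries, blue for WT and orange for KO, and the open diamond is the third 2D WT library. That diamond is the highest point for Krt19, Krt7, Epcam and Cd24a, while Spp1 and Krt18 are highest in 36W KO libraries.

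The third 2D WT library carried Krt19, Krt7, Epcam and Cd24a at levels seen in no other library. Krt19, the classical duct keratin, was at 65.7 CPM there, against 2.69 and 1.70 CPM in the other WT libraries and 1.11, 2.89 and 5.30 CPM in KO. It was the highest of all 18 libraries and 24.4 times the median of the other 5 libraries of that time. Krt7, the partner keratin of ducts, was at 24.7 CPM there, against 1.35 and 1.40 in WT and 2.22, 2.11 and 1.09 in KO, a 17.6-fold excess over the median of the 5. Epcam was at 53.8 CPM against 2.88 to 5.86, and Cd24a at 62.0 CPM against 6.95 to 12.3. Spp1 (282 against 84.9 to 109 CPM) and Sox9 (15.9 against 5.40 to 8.23 CPM) were also above all 5 of them, though below the highest 36W libraries. Krt8, at 430 CPM, was above all 5 as well (285 to 385 CPM), at 1.33 times their median. Only Krt18, at 308 CPM, lay within the range of the 5, 174 to 331. Among 14004 genes with at least 1 CPM, ranked by this excess, Krt19 came at place 71, Krt7 at 137, Epcam at 233, Cd24a at 444, Spp1 at 990, Sox9 at 1254, Krt18 at 2727 and Krt8 at 3175.

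Other genes of ducts, of the liver capsule and of connective tissue moved with them in that library. Of 32 other genes of biliary epithelium, 26 were above all 5 other 2D libraries. They include Dmbt1, a secreted mucosal glycoprotein, at 256 CPM against 0 to 1.45, Muc1, a membrane mucin, at 23.5 against 0.494 to 1.82, and Ehf, an epithelial transcription factor, at 31.3 against 0.673 to 2.11. The summed level of this list was 1180 CPM in the third library and 465 to 575 CPM in the other 5. All 8 mesothelial markers were above the 5, with Msln at 29.4 CPM against 0.987 to 8.46, and so were 10 of 12 mesenchymal markers, with Col1a1 at 1190 CPM against 64.8 to 163 and Col3a1 at 2476 against 234 to 513. The 5 smooth muscle markers were also all above, with Myh11 at 118 CPM against 1.55 to 6.67. Of 8 pancreas and gut markers 2 were above, while Cpa1, Prss1, Amy2a5 and Cdx2 had no count in it. Blood cell lists moved little: 1 of 6 B cell, 1 of 6 erythroid, 1 of 6 neutrophil and 1 of 8 macrophage genes were above the 5. The 26 biliary genes include Mmp7, which had 2 counts in the third library. The share of all genes above the 5 is not given, so these counts have no background beside them. Over genes, this library had the widest spread about its group mean, an SD of 0.677 on the log2 scale against 0.245 to 0.470. A change in the share of duct cells and a change in duct RNA per cell cannot be told apart in bulk tissue, and the part of the other tissues in the members' levels was not tested. Comparisons that use 2D WT libraries are given below with and without it; other comparisons fitted over all 18 libraries share their spread, scaling and gene filter with it, and for them the value without it is given where it changed a call or a count.

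The third 4W KO library was a weaker case. Krt19 was at 7.92 CPM there, against 1.81 and 2.11 CPM in the other KO libraries and 1.90 to 2.25 CPM in WT, and Krt7 at 4.19 CPM against 0.748 to 1.43 in the other 5 libraries of that time. Epcam, at 6.94 CPM, was also the highest at 4W, while Spp1, at 99.2 CPM, and Sox9, at 11.8 CPM, were the lowest of the 3 KO libraries. In it 10 of 12 mesenchymal, 6 of 8 mesothelial, 4 of 5 smooth muscle and 16 of 32 other biliary genes were above the other 5 libraries of that time. So were 4 of 6 erythroid, 3 of 8 pancreas and gut, 2 of 8 macrophage, 1 of 6 B cell and 0 of 6 neutrophil genes. The share of all genes above those 5 is not given for this library either.

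**Figure D2:**
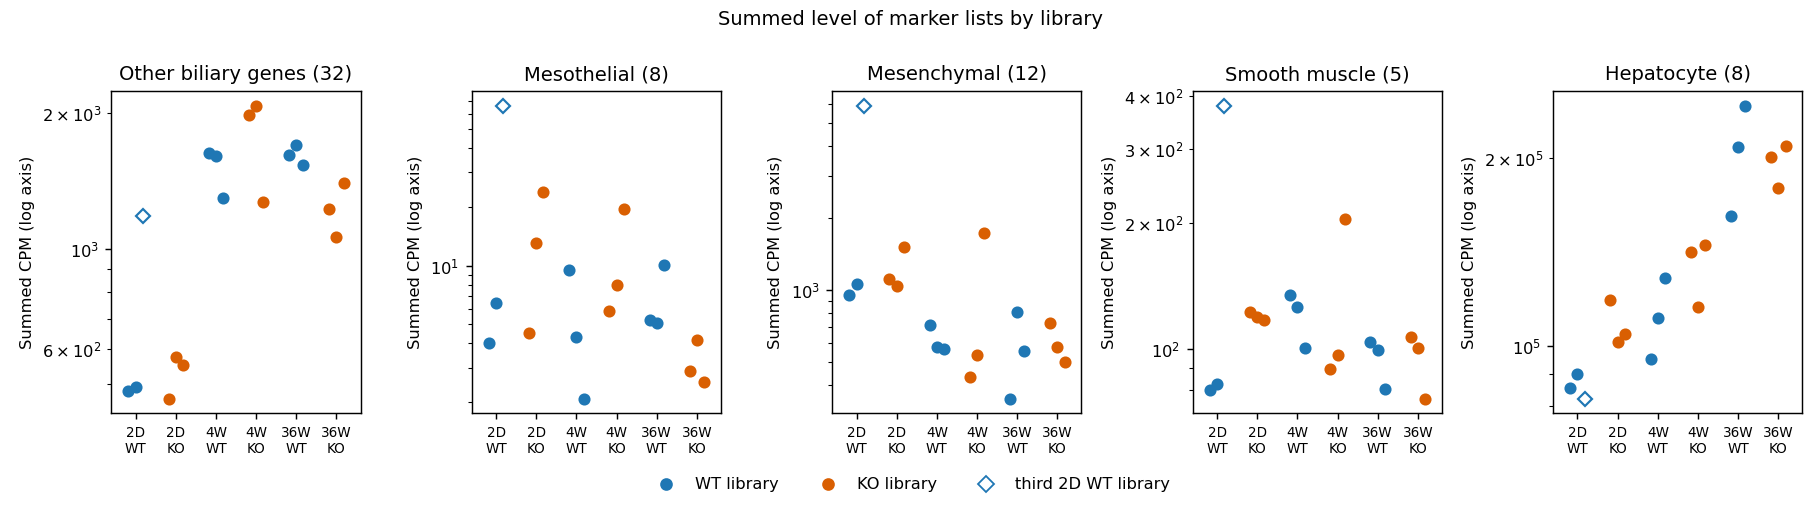
Summed CPM of 5 marker lists in each library, on a log axis that differs between panels; points are single libraries and the open diamond is the third 2D WT library. It lies above every other library for the mesothelial, mesenchymal and smooth muscle lists, and above the other 2D libraries, at 1180 CPM, for the biliary list.

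Whether loss of NRF2 changed these genes was asked by setting KO against WT within each time. At 2D none of the 8 passed an adjusted p of 0.05 by edgeR with all 6 libraries, and 0 were under an unadjusted p of 0.05 by edgeR, DESeq2 or limma-voom; over all genes 0.165% were called. The fitted values were large and negative for the genes high in the third WT library: the log2 fold change of Krt19 was -2.90 (SE 1.35, adjusted p = 0.346), that of Krt7 -2.33 (SE 1.11), that of Epcam -2.20 (SE 0.984) and that of Cd24a -1.40 (SE 0.768). Without that library they were 0.47 (SE 0.547), 0.37 (SE 0.397), 0.054 (SE 0.296) and 0.24 (SE 0.222), so the sign turned for all 4. Spp1 went from -0.61 to 0.17 and Sox9 from -0.31 to 0.35. Krt8 was at 323, 285 and 430 CPM in WT and 286, 330 and 385 CPM in KO, fully overlapping, with a log2 fold change of -0.06 and of 0.11 without the third library. Krt18 was at 215, 174 and 308 CPM in WT and at 206, 249 and 331 in KO, with a log2 fold change of 0.16 and of 0.41 without it. Leaving the library out raised the share of all genes called to 13.1%, and still 0 of the 8 were called, by edgeR (0 under an unadjusted p of 0.05), DESeq2 (1) or limma-voom (0). The fit of the remaining 5 libraries gave a positive value for all 8 genes, with a median of 0.29 against 0.0042 over all genes. This lean was not particular to the 8 genes. Medians in that fit were 1.86 for the mesothelial, 1.38 for the B cell and 0.85 for the smooth muscle list. Those of the neutrophil (-0.31) and hepatocyte (-0.21) lists were among the negative ones. In the same 5 libraries 4 of 14 genes of NOTCH signalling and biliary fate were called higher in KO, among them the receptor gene Notch1 (0.90), the ligand gene Jag1 (0.80) and the target Heyl (1.06), and Tgfbr2 lower (-0.55). Of 23 other biliary genes tested, Pkhd1, a ciliary protein of duct cells, was higher (1.03) and Tff3, a secreted trefoil peptide, lower (-1.52). With all 6 libraries of 2D, edgeR called 0 of the 14 NOTCH and biliary fate genes and 0 of the 23 other biliary genes.

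At 4W the genotypes were close. Krt8 was at 420, 373 and 439 CPM in WT and at 360, 264 and 355 CPM in KO. Every KO library was below every WT library, yet edgeR gave a log2 difference of -0.34 with an SE of 0.138 and an adjusted p of 0.188. Its partner Krt18, at 257, 229 and 286 CPM in WT and 260, 206 and 227 in KO, overlapped between genotypes. Cd24a was at 4.51, 5.57 and 3.71 CPM in WT and at 7.60, 5.42 and 7.86 CPM in KO, and the fitted log2 value was 0.59 (SE 0.248, adjusted p = 0.208); the lowest KO library lay below the highest WT library. Spp1 was at 85.9, 99.3 and 109 CPM in WT and 148, 125 and 99.2 CPM in KO, also overlapping, and the fitted log2 value was 0.33 (SE 0.152). None of the 8 genes was called by edgeR (2 under an unadjusted p of 0.05), DESeq2 (3) or limma-voom (1), where edgeR called 6.08% of all genes. The values of Krt19 (0.89), Krt7 (0.58) and Epcam (0.38) rested on the third KO library, and without it they were -0.12, -0.50 and -0.0028. Of 23 other biliary genes tested at 4W, Tff3 (1.94) and the ciliary channel gene Pkd2 (0.56) were called higher in KO, as was Cd9, a tetraspanin of progenitor cells (0.72).

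At 36W all 8 genes had a positive fitted value in KO, and only Spp1 and Krt18 did not overlap between genotypes. With 3 libraries against 3, full separation of a gene reaches a two-sided exact permutation p of only 0.1. The share of all genes without overlap between genotypes is not given for any time. Spp1, osteopontin, was at 202, 506 and 80.0 CPM in WT and at 994, 677 and 1146 CPM in KO. Every KO library was above every WT library, with an SD of 219 CPM in WT and of 239 CPM in KO. The fitted log2 difference was 1.87 with an SE of 0.60 (adjusted p = 0.324 by edgeR). Epcam was at 1.05, 0.889 and 1.46 CPM in WT and at 8.19, 6.83 and 1.13 CPM in KO, so that 2 KO libraries were well above WT and the third lay inside the WT range; its log2 value of 2.27 with an SE of 0.676 had an adjusted p of 0.310. Krt7 followed the same libraries, with 0.439, 0.198 and 1.08 CPM in WT and 2.13, 3.13 and 0.676 CPM in KO (log2 value 1.83 with an SE of 0.752, adjusted p = 0.401). Krt19 was at 0.351, 0.395 and 1.01 CPM in WT and at 1.79, 2.72 and 0.113 CPM in KO; the last value is 2 counts, under the floor of 3 counts. Krt18 was at 281, 496 and 524 CPM in WT and at 567, 659 and 895 CPM in KO, without overlap (log2 value 0.73 with an SE of 0.287, adjusted p = 0.383). Krt8 (333, 441 and 704 CPM in WT, 587, 577 and 652 in KO) and Sox9 (16.9, 49.2 and 18.4 CPM in WT, 36.2, 29.8 and 23.5 in KO) overlapped. Cd24a did too, with 7.07, 15.1 and 5.89 CPM in WT and 9.57, 21.5 and 15 in KO.

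Of the 8 genes, edgeR and limma-voom called 0 at 36W (4 and 2 under an unadjusted p of 0.05), where edgeR called 0.0370% of all genes. DESeq2 called Epcam alone, at a log2 fold change of 2.26 and an adjusted p of 0.0287, and it called 1.97% of all genes. The median log2 fold change of the 8 was 1.09 against 0.01 over all genes. The 32 other biliary genes did not share this: 21 were tested, 12 had a positive value and the median was 0.10. Mesenchymal markers were at a sum of 351 to 808 CPM in WT livers and of 498 to 727 CPM in KO livers, which overlapped; 10 of 12 had a positive value with a median of 0.19, and edgeR called 0 (1 under an unadjusted p of 0.05). Mesothelial markers were at a sum of 5.09 to 10.1 CPM in WT and of 2.53 to 4.17 CPM in KO, every KO library being lower. These sums lie near the floor, since only 1 to 5 of the 8 genes had over 3 counts in a KO library and 5 to 7 in a WT library. Of the 3 tested, edgeR called 0 (0 under an unadjusted p of 0.05). Genes listed for lipid-associated macrophages, which also make osteopontin, had sums of 406 to 484 CPM in the WT libraries against 542 to 784 CPM in KO, without overlap. Fabp5 and Cd63 were the largest parts of these sums. Fabp5 spanned 273 to 484 CPM among KO libraries, above its WT range of 155 to 210. Cd63 overlapped, with a KO range of 155 to 235 CPM against 140 to 184. Itgax did not overlap, whereas Trem2, Gpnmb, Lgals3 and Mmp12 did. Clec4f, a gene of resident Kupffer cells that was kept in this list, leaned the other way, with a KO range of 18.9 to 49.7 CPM against 25.5 to 94.8. Of the 8 listed genes edgeR called 0 (2 under an unadjusted p of 0.05), and 5 had a positive value. Neither the share of such macrophages nor their part in the Spp1 values was tested.

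**Figure D3:**
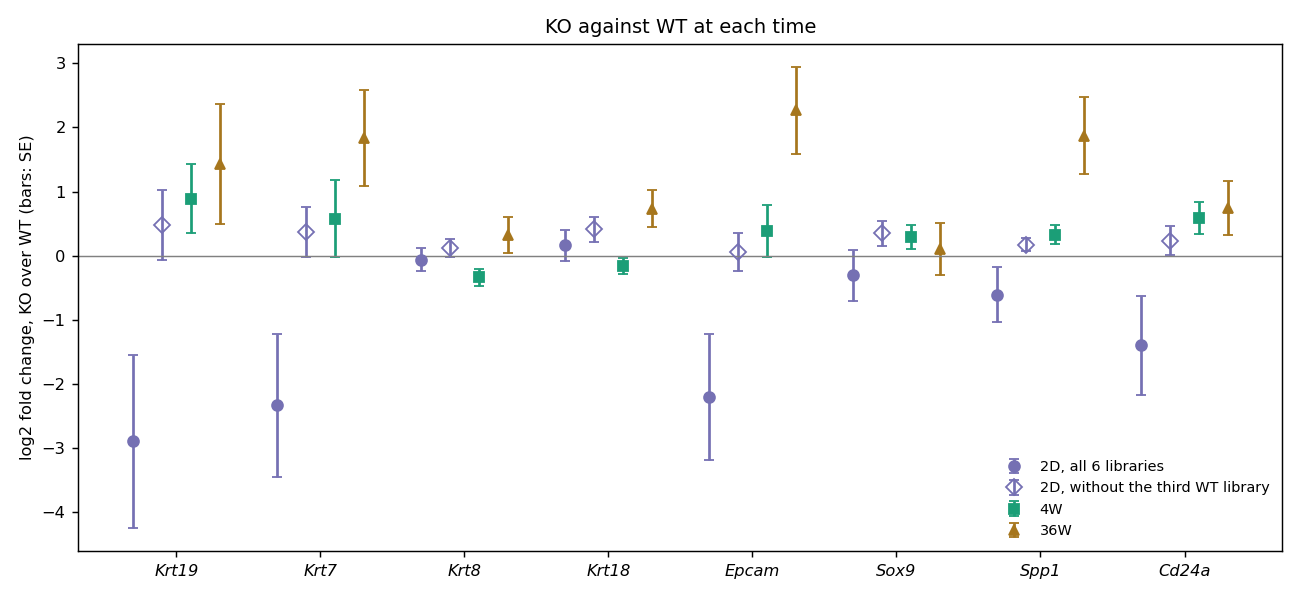
Log2 fold change of KO over WT at each time for the 8 genes, with bars of 1 SE from edgeR; open diamonds show 2D without the third WT library. The 2D value of Krt19 moves from -2.90 to 0.47 when that library is left out, and all 8 values at 36W are above 0.

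Whether the KO effect differed between times was tested directly in a single fit of all 18 libraries. For 36W minus 2D edgeR called 0 of the 8 genes (5 under an unadjusted p of 0.05) and 3.04% of all genes, and limma-voom called 0 (1 under that p). The differences nearest to the threshold were those of Epcam, 4.46 (SE 1.23, adjusted p = 0.0579), and Spp1, 2.45 (SE 0.720, adjusted p = 0.0720). DESeq2 called these and Krt7, 3 of 8 genes, with 7.87% of all genes called. Without the third 2D WT library the difference fell to 2.18 (SE 0.809, adjusted p = 0.128) for Epcam and to 1.65 (SE 0.624, adjusted p = 0.135) for Spp1, and edgeR called 0 of 8 (2 under the unadjusted p) and 757 of all 15153 genes. For 2D minus 4W edgeR called 0 of 8 (4 under the unadjusted p) and 1.34% of all genes, and DESeq2 and limma-voom called 0 (4 and 0 under that p). Without the third 2D WT library edgeR still called 0 of 8, with 0 under that p, and 3.50% of all genes, so each of the 4 small p-values rested on that library; the median of the 8 went from -1.47 to -0.15. For 36W minus 4W edgeR called 0 of 8 (1 under that p) and 0.565% of all genes, and DESeq2 and limma-voom called 0 (2 and 3 under it); Spp1 differed by 1.5 (SE 0.714, adjusted p = 0.316). With that library out of the shared fit 0 of 8 were called (4 under that p), against 0.884% of all genes, and Spp1 differed by 1.53 (adjusted p = 0.202). Comparisons at different times share no libraries for KO against WT, but the 3 differences share them pairwise.

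Between 2 days and 4 weeks the edgeR calls on the members, all in WT, depended on 1 library. In WT, with all libraries, 4 of 8 genes were called higher at 2D than at 4W against 18.6% of all genes: Krt19 (log2 fold change 3.46, SE 1.15, adjusted p = 0.0272), Krt7 (2.74, SE 0.980), Epcam (2.52, SE 0.843) and Cd24a (2.51, SE 0.643, adjusted p = 0.00645). Without the third 2D WT library their log2 fold changes were 0.07, 0.03, 0.26 and 0.87 and edgeR called 0 of 8 (2 under an unadjusted p of 0.05) while calling 33.0% of all genes; DESeq2 called 1 lower and limma-voom 0. With all libraries limma-voom also called 0 of 8. In KO edgeR called 0 of 8 between these times (1 under that p, Sox9 at -0.91, SE 0.409), DESeq2 and limma-voom called 0 (1 and 0 under it), and edgeR called 24.2% of all genes; without that library in the shared fit it also called 0 of 8. Sox9 was below its 4W level at 2D in every KO library, at 8.23, 6.44 and 7.56 CPM against 15.9, 14.1 and 11.8 CPM, and in WT it was at 6.10, 5.40 and, in the third library, 15.9 CPM at 2D against 11.9, 13 and 8.98 CPM at 4W. Cd24a was higher at 2D without overlap in KO, at 8.08 to 12.3 CPM against 5.42 to 7.86 CPM (0.51, SE 0.618, not called). In WT it did not overlap either, even without the third library, at 9.60 and 6.95 CPM against 3.71 to 5.57 CPM. Without that library Krt8 (-0.41) and Krt18 (-0.39) also lay lower at 2D in WT without overlap, while both overlapped in KO. The share of all genes without overlap is not given here.

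From 4 to 36 weeks in KO, 4 of the 8 genes rose, against 14.5% of all genes called higher. Spp1 went from 148, 125 and 99.2 CPM to 994, 677 and 1146 CPM, a rise of 2.92 on the log2 scale (SE 0.539, adjusted p = 0.000733). Krt18 rose by 1.61 (SE 0.260, adjusted p = 0.000257), from 206 to 260 CPM at 4W to 567 to 895 CPM at 36W, and its partner Krt8 by 0.89 (SE 0.227, adjusted p = 0.00719), from 264 to 360 CPM to 577 to 652 CPM. Sox9 rose by 1.10 (SE 0.401, adjusted p = 0.0491), from 11.8 to 15.9 CPM to 23.5 to 36.2 CPM. None of the 4 overlapped between the times, and the calls of Spp1, Krt18 and Krt8 held under every alternative run, while that of Sox9 was lost without any 1 of the 6 libraries (adjusted p up to 0.137). The share of all genes without overlap is not given for this step in either genotype. Cd24a, from 5.42 to 7.86 CPM to 9.57 to 21.5 CPM, did not overlap either but was not called (1.15, SE 0.619, adjusted p = 0.181). Without the third 2D WT library, which is in neither group and enters through the shared spread, scaling and gene filter, it was the fifth gene called higher (1.18, adjusted p = 0.0158), where 16.7% of all genes were. The duct keratins Krt19 (-1.36, SE 1.15) and Krt7 (-0.05, SE 0.956) and Epcam (0.17, SE 0.823) were not called.

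In WT the same step called Krt18 (0.75, SE 0.255, adjusted p = 0.0462) and Sox9 (1.31, SE 0.403, adjusted p = 0.0289) higher, 2 of 8 genes against 11.9% of all genes. Krt18 went from 257, 229 and 286 CPM to 281, 496 and 524 CPM, so its lowest 36W library lay inside the 4W range. Sox9 went from 8.98 to 13 CPM to 16.9, 49.2 and 18.4 CPM, without overlap but with 1 library far above the other 36W WT libraries, and its value without that library was 0.64 (adjusted p = 0.247). Spp1 (1.42, SE 0.512, adjusted p = 0.0600) was not called, and 1 of the 3 libraries at 36W, at 80.0 CPM, was below all those at 4W. Krt19 was at 1.90 to 2.25 CPM at 4W and 0.351 to 1.01 CPM at 36W, and Epcam at 2.34 to 5.57 and 0.889 to 1.46 CPM. Neither overlapped between the times and neither passed the test (Epcam -1.68, SE 0.906, adjusted p = 0.212). With the third 2D WT library left out of the shared fit, 5 of 8 genes were called against 23.8% of all genes: Krt18, Sox9, Spp1 (1.43, adjusted p = 0.0236) and Cd24a (1.04, adjusted p = 0.0436) higher, and Epcam lower (-1.67, adjusted p = 0.0458). Both WT calls were lost with limma-voom and with library size alone. The difference between genotypes in this step is the KO effect of 36W minus 4W given above, for which edgeR called 0 of the 8 genes.

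**Figure D4:**
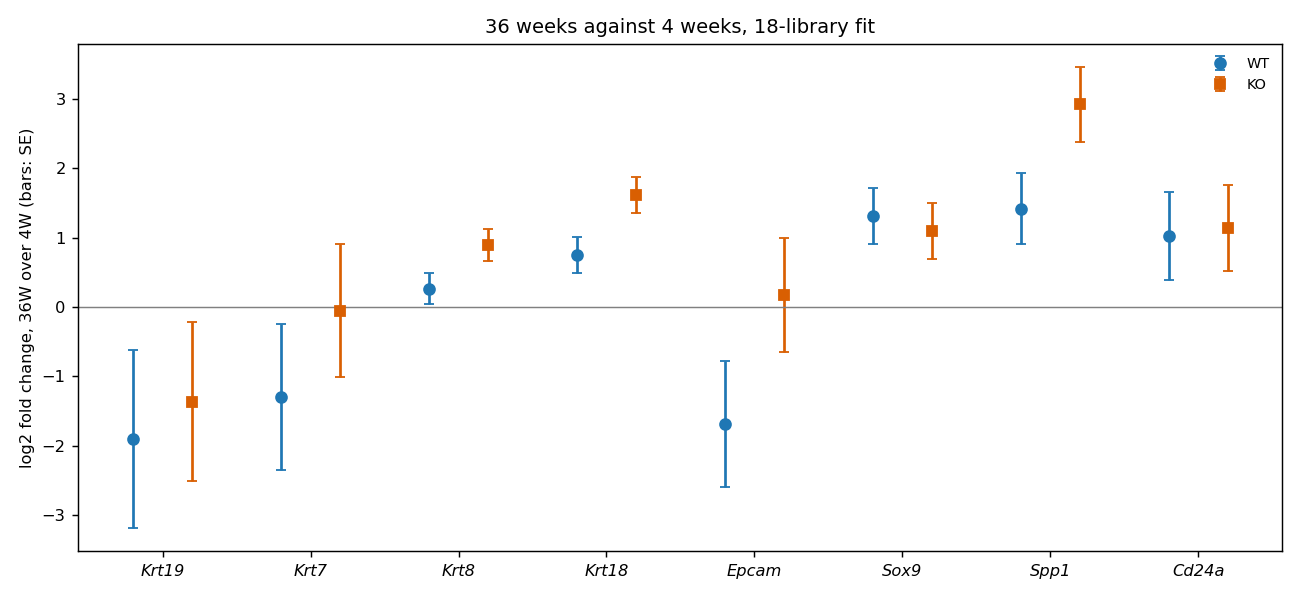
Log2 fold change of 36W over 4W for the 8 genes in WT and KO, with bars of 1 SE from the edgeR fit of 18 libraries. Krt8, Krt18, Sox9 and Spp1 lie above 0 in both genotypes, and Krt19 lies below 0 in both.

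Set against 2 days, 36 weeks gave the same 4 genes in KO: Spp1 (3.23, SE 0.546), Sox9 (2.01, SE 0.414), Krt18 (1.43, SE 0.259) and Krt8 (0.86, SE 0.227) were higher, against 17.8% of all genes, and this comparison shares its 36W libraries with the one before. The same 4 were called in KO with the third 2D WT library out of the shared fit. In WT with all libraries Krt18 (0.90; 0.485 and not called with library size alone) and Sox9 (1.62) were called higher, against 20.7% of all genes, and Krt19 (-5.36, SE 1.31), Krt7 (-4.03, SE 1.07) and Epcam (-4.20, SE 0.935) lower, against 17.1%. Without the third 2D WT library Krt19 (-1.95, adjusted p = 0.104) and Krt7 (-1.31, adjusted p = 0.191) were no longer called. Then 4 genes were called higher, Krt8 (0.69), Krt18 (1.15), Sox9 (2.28) and Spp1 (1.57), against 20.6% of all genes, and Epcam (-1.93, SE 0.614, adjusted p = 0.0226) lower, against 15.4%. The lower level of Epcam in WT, 0.889 to 1.46 CPM against 4.13 and 4.40 CPM, thus kept its call by edgeR without that library, but limma-voom then called 0 of the 8 genes lower.

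Krt18 and Krt8 changed unequally. Within a library, where scaling cancels, the ratio of Krt18 to Krt8 counts per length was 0.788, 0.792 and 0.841 in 4W WT and 0.934, 1.01 and 0.824 in 4W KO. At 36W it was 1.09, 1.45 and 0.961 in WT and 1.25, 1.47 and 1.77 in KO, so that within each genotype every 36W library was above every 4W library. The difference between 36W and 4W was 0.60 on the log2 scale, 1.51-fold, with a two-sided exact permutation p of 0.005 within genotype, the smallest that the 400 arrangements allow. Against 2D, where the ratio was 0.785 to 0.922 in WT and 0.926 to 1.11 in KO, the difference was 0.50 (exact permutation p = 0.005), and 2D differed from 4W by 0.10 (exact permutation p = 0.165). Without the third 2D WT library these differences were 0.53 (exact permutation p = 0.01, 2 of 200 arrangements) and 0.074 (exact permutation p = 0.3). These tests of the ratio were chosen after seeing the data, and unequal change of the pair is all that a ratio shows.

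**Figure D5:**
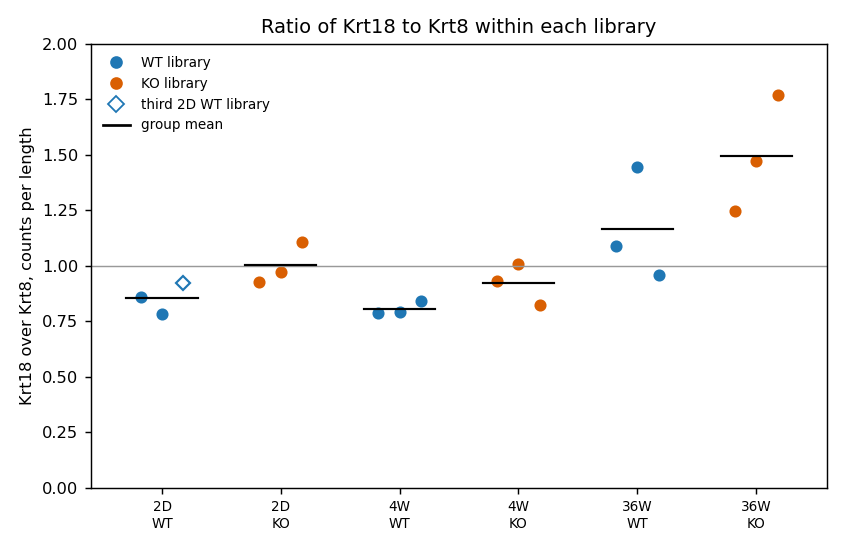
Ratio of Krt18 to Krt8 counts per kilobase of gene length within each library; points are single libraries, black lines group means, and the grey line marks equal levels. At 36W all 3 KO libraries are at 1.25 or more and 5 of the 6 libraries exceed 1.

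Genes that act with the members or mark the same cells were read from fixed lists. Over all genes 36W against 4W called 11.9% higher and 9.13% lower in WT, and 14.5% higher and 15.3% lower in KO, and some of the counts of these short lists lie near those shares. Among 14 genes of NOTCH signalling and biliary fate, 36W against 4W called 6 higher and 1 lower in WT and 3 higher and 1 lower in KO; Hes1, a NOTCH target, was higher by 1.34 and 1.67 on the log2 scale, and Onecut2, a transcription factor of early liver and duct development, lower by values of -1.74 and -2.42. Of 18 progenitor genes and signals, 16 were tested and 7 were higher and 1 lower in WT, and 5 higher and 3 lower in KO. They include Tnfrsf12a, the receptor for the progenitor mitogen TWEAK, higher by 3.08 (SE 0.346) and 3.98 (SE 0.356), and Afp, the fetal serum protein, higher by 4.73 and 5.01. Of 10 YAP and TEAD genes 2 were higher in WT, and 2 higher and 1 lower in KO. Of 8 osteopontin receptor chains and related integrins 3 were higher in WT and 1 in KO, Itgav being higher in both (0.43 and 0.43); with the third 2D WT library out of the shared fit 3 were higher in each genotype. Of 32 other biliary genes 26 were tested, with 6 higher and 1 lower in WT and 5 higher and 2 lower in KO; Tff3 was higher by 4.67 and 2.40, and Pigr, which carries IgA into bile, was lower in KO, at a mean of 313 against 1256 CPM. Of 12 keratins and desmosome genes 9 were tested, with 3 higher in WT, and 3 higher and 1 lower in KO, the last being Dsp, a desmosome plaque protein (-1.45). Leaving that library out moved the other counts by 2 genes at most, the progenitor list in WT going from 7 to 9 higher and the YAP and TEAD list from 2 to 3.

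Beside the rise of Spp1, 5 of 8 macrophage genes were higher and 1 lower at 36W than at 4W in each genotype, with medians of 1.25 in WT and 2.08 in KO against 0.01 and -0.02 over all genes; Cd63 rose by 3.77 and 3.39, and Gpnmb by 3.42 and 4.32. Their summed level at 4W was 253 to 259 CPM for WT and 148 to 231 CPM for KO. At 2D it was already 416 to 579 CPM for WT and 445 to 592 CPM for KO, with Cd63 at 93.7 to 124 CPM. Spp1 was at 84.9 to 109 CPM at 2D without the third WT library, so the sum and Cd63 did not follow Spp1 at that time. Gpnmb was low at 2D, at 1.11 to 4.49 CPM. Beside the rise of Krt8 and Krt18, which hepatocytes express, 3 of 8 hepatocyte genes were higher and 2 lower in each genotype (2 higher and 3 lower in KO with the third 2D WT library left out). The summed hepatocyte level was 95341 to 145054 CPM at 4W and 161390 to 242629 CPM at 36W, without overlap. Yet only 4 of the 8 genes had a positive value in each genotype, with medians of -0.19 in WT and 0.02 in KO. The higher sum was therefore not shared by the list as a whole. The part of either cell type in the members' levels was not tested.

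As a description, the 5 other genes whose log2 CPM most resembled that of Spp1 over the 17 libraries without the third 2D WT library, among 10981 genes, were Limd1 (Pearson r = 0.902), Aig1 (0.899), Fibp (0.891), Fgd3 (0.888) and H2-Q6 (0.888). For Krt8 they were Cd81 (0.924), Atf3 (0.911), Fdx1l (0.896), Tvp23b (0.894) and Vamp4 (0.892). For Krt19 they were Dcaf12l1 (0.841), Slc26a10 (0.823), Axin2 (0.816), Angptl2 (0.812) and Npr3 (0.806). The libraries share time and genotype in blocks, so these values reflect group levels as well as single libraries.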

How the data were processed

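The deposited table held whole-number counts per gene for 18 libraries, which the authors made, per the submitters' processing notes, with STAR 2.5, HTSeq and DESeq2 on build mm10. Total RNA went through a TruSeq kit, per the labels' protocols; strand was not given in the sources used here. The 8 genes and all lists were chosen with earlier results of these data known. KO was compared with WT on the 6 libraries of each time, and times and effect differences in a fit of all 18 libraries, by edgeR 4.0.16 (quasi-likelihood F test, TMM, filterByExpr, Benjamini-Hochberg over all genes, threshold 0.05) in R 4.3.3; all 8 genes passed the filter in every fit. SEs are the log2 fold change over the root of F. DESeq2 1.42.0, limma 3.58.1, other scalings and filters, a replicate block and leaving out each library were alternatives; DESeq2 and limma-voom without the third 2D WT library, and the keratin ratio, were chosen after seeing the data. Scripts were tested on simulated data. Named genes were the 8 members, markers where a library stood apart, up to 4 called genes of smallest p per list and comparison (of which examples are printed), and the 5 most similar genes to Krt19, Spp1 and Krt8. Reads shared with pseudogene copies could not be separated.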

Additional observations from a re-analysis of the deposited data

How the results depend on the processing

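Calls on the 8 genes rested most on the third 2D WT library, and each group had 3 libraries, so sparse genes (Krt19, Krt7, Epcam) carried wide errors. For KO against WT 0 of the 8 genes were called at 2D and 4W under all alternatives run, and at 36W the count was 1 with DESeq2. For 2D against 4W in WT, 4 genes became 0 with limma-voom, 1 with the replicate block, 1 with only the 2 groups fitted, and 0 to 4 when 1 library was left out; in KO 0 became 1 with only the 2 groups. For 36W against 4W in WT, 2 became 0 with limma-voom, 0 with library size alone, 5 with 17 libraries in the shared fit, and 0 to 2 when 1 library was left out. For 36W against 2D in WT, 5 became 2 with limma-voom and 1 with only the 2 groups. For the difference of 36W minus 2D, 0 became 3 with DESeq2, 1 with no filter, and 0 to 1 when 1 library was left out. Replicate numbers are shared by all groups but the labels do not say that they pair. Same-numbered WT and KO libraries of a time had deviations correlated by -0.07 to 0.23 (2 of 9 over 0.1). With 3 libraries per group such values cannot settle whether libraries were paired, and no pairing was assumed in the main tests.

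With sample quality weights the 2D log2 fold change of KO over WT turned to 0.071 for Krt8, 0.19 for Sox9 and 0.035 for Spp1. When 1 library was left out at 2D, the range was -3.56 to 0.47 for Krt19, -2.85 to 0.37 for Krt7, -0.18 to 0.11 for Krt8, -0.040 to 0.41 for Krt18, -2.69 to 0.054 for Epcam, -0.56 to 0.35 for Sox9, -0.88 to 0.17 for Spp1 and -1.84 to 0.24 for Cd24a. At 4W it was -0.12 to 1.23 for Krt19, -0.50 to 0.97 for Krt7 and -0.0028 to 0.85 for Epcam, and at 36W -0.16 to 0.77 for Sox9. The cause of these turns was not tested, beyond that each alternative drops or downweights libraries. None of the 19 called single-gene time comparisons changed direction; 57 of their alternatives lost the call and 219 did not. Of those not called, Cd24a at 36W against 2D in WT turned from -1.48 to 0.17 and Spp1 at 2D against 4W in WT from 0.64 to -0.14 without the third 2D WT library, and so did the Sox9 difference of 36W minus 2D, from 0.39 to -0.28, and of 2D minus 4W, from -0.60 to 0.086.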

Other observations

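Some list genes that belong to no comparison of the 8 genes changed strongly between 2 days and 4 weeks. In KO Afp, the fetal serum protein, was higher at 2D by 8.64 on the log2 scale (SE 0.840, adjusted p = 5.09e-06 by edgeR), at a mean of 2546 CPM against 6.35 CPM. The same held in WT with all libraries, by 9.71 (SE 0.878), at a mean of 4088 CPM against 4.90 CPM. Of 6 cell cycle genes 5 were higher at 2D in KO, against 10.8% of all genes, among them Rrm2 (2.88) and Top2a (2.44). In WT 4 were higher, against 18.6% of all genes, and 2 without the third 2D WT library, against 15.4%. Pigr was lower at 2D in KO with a log2 value of -6.27 (SE 0.540) and an adjusted p of 1.51e-06. It was lower in WT too, with a log2 value of -5.90 (SE 0.530), and of -6.52 (SE 0.556) without the third 2D WT library.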
